A study of Mus musculus with 15 samples.

Results

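Retinal microglia of Apoe-/- mice were compared between eyes given microbeads and eyes given a sham injection. Both groups lacked Apoe, and 8 of the 15 libraries in the series belonged to them, chosen by the genotype and treatment in the labels. Microbeads, injected into the front of the eye, slow the drainage of fluid and raise the pressure, which models glaucoma. The first group was Apoe-/- with a microbead injection (n = 4 retinas) and the other Apoe-/- with a sham injection (n = 4 retinas), all C57BL/6 mice of 12 weeks. The labels name no promoter, Cre driver or founder of the Apoe-/- line, and they do not say that the retinas came from separate mice or how long after the injection they were taken. The p-values thus measure the variation between samples, some of it possibly technical. Cells were sorted as CD11b+, Ly6c- and Fcrls+, 100 to 600 from each retina, so a microglial cell without surface Fcrls was not collected.

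Microglia are the resident macrophages of the retina. In the resting, or homeostatic, state they depend on TGF-beta and CSF1 receptor signalling and express sensors of their surroundings such as P2ry12 and Tmem119. In injured and degenerating tissue they can pass into a neurodegenerative state, with lysosomal, lipid-handling and antigen-presenting genes raised and homeostatic genes lowered, and this switch is known to depend on Trem2 and on apolipoprotein E, the lipid carrier encoded by Apoe. The comparison addresses whether microglia that cannot make apolipoprotein E leave the homeostatic state under raised pressure.

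The labelled genotype and cell type were checked first. Apoe (apolipoprotein E) had 5, 3, 3 and 3 reads with microbeads and 0, 1, 1 and 6 reads with sham, against 667 to 15125 reads in the wild-type libraries. All 11 microglial markers had reads in each of the 8 libraries, with at least 24 reads of Aif1 and 226 reads of Cx3cr1. The libraries held 503034 to 594322 gene reads in the microbead group and 458111 to 619191 in the sham group. The major satellite, a centromeric repeat that the annotation carries as genes, took 55.4 to 70.7% of reads in microbead and 64.7 to 74.4% in sham libraries. Genes of olfactory, vomeronasal and taste receptors, 1499 in number and silent in microglia, took 0.835 to 2.14% in microbead and 0.965 to 2.44% in sham libraries and serve as a measure of background. Sham library 2 stood apart, with the highest satellite share, the smallest scaled size (225227 reads) and 2216 genes with at least 10 reads. Its rank correlations with the other 7 libraries reached down to 0.479, against 0.619 for the lowest pair between groups without it. Microbead library 1 and sham libraries 2 and 4 had the highest receptor shares (2.14, 2.44 and 2.35%). Microbead libraries averaged 4352 ± 823 genes with at least 10 reads and sham libraries 3604 ± 1049 (SD, n = 4 each), and the receptor shares averaged 1.27 ± 0.593% and 1.81 ± 0.706%. An exact two-sided permutation test gave an adjusted p of 0.429 for each of 6 library measures, but 4 libraries against 4 cannot go below an unadjusted p of 0.0286, so this says little on whether they differed.

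No single gene passed the threshold. Of 6521 genes tested with edgeR's quasi-likelihood test, 0 had an adjusted p under 0.05 (0%), and the smallest adjusted p was 0.700. DESeq2 and limma voom also called 0. An unadjusted p under 0.05, written nominal p below, was reached by 453 genes (6.95%) with edgeR, 216 higher (3.31%) and 237 lower (3.63%) with microbeads, by 432 with DESeq2 and by 316 with voom. The split of higher against lower depended on the scaling: it was 270 to 176 with upper-quartile scaling, 280 to 70 on log2(TPM + 1) and 332 to 70 on log2(TPM + 0.1), and 186 to 134 with the satellite share as a covariate. The 2 groups did not overlap in 163 genes (2.5%), of which 101 (1.55%) were higher and 62 (0.951%) lower with microbeads. Log2 fold changes below are microbead minus sham from edgeR, and levels are CPM, relative to the TMM-scaled library size. Where a fold change stands in parentheses its SE follows it. Some gene lists share members, such as Cd74, B2m, Ctsb, Fth1 and the chemokines, so their counts are not independent. The median log2 fold change of all genes tested was 0.008, and 50.8% of genes lay above 0.

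Homeostatic genes had close to the same levels in both groups. P2ry12, the purinergic receptor that guides microglial processes to injury, had 671, 399, 292 and 739 CPM with microbeads and 469, 404, 722 and 558 CPM with sham. Tmem119, a membrane protein particular to microglia among brain cells, had 891, 798, 952 and 926 CPM with microbeads and 1009, 639, 1136 and 900.1 CPM with sham. Cx3cr1, the fractalkine receptor, had 1500, 1216, 1262 and 2169 CPM with microbeads and 1451, 1003, 2084 and 1578 CPM with sham. In each of these genes the ranges of the groups overlapped. The 95% intervals of the log2 fold change were -0.65 to 0.57 for P2ry12, -0.54 to 0.44 for Tmem119 and -0.53 to 0.54 for Cx3cr1, all 3 inside a 2-fold difference either way.

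The same held for most of the list. All 43 homeostatic genes passed the filter on low counts. Of these, 27 had a fold change above 0 and 16 below, with a median of 0.05, and 36 had a 95% interval that stayed within a 2-fold difference both ways, against 27.8% of all genes tested. A 2-fold fall lay outside the interval in 39 genes (58.3% of all genes tested) and a 2-fold rise in 39 (60.0%). Of the 43 genes 41 exceeded 3 times the sensory receptor background, against 36.8% of all genes tested. The interval widths are thus not compared at like levels. At nominal p 1 gene was higher and 2 were lower, against 3.31% and 3.63% of all genes tested. The groups did not overlap in 0 genes (2.5% of all genes tested). The median changed sign in 4 of 23 alternative analyses: it was -0.21 without sham libraries 2 and 4, and also below 0 without sham library 2 alone, without microbead library 4 and with the satellite share as a covariate. Its highest value, 0.33 on log2(TPM + 0.1), stood beside an all-gene median of 0.26.

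**Figure D1:**
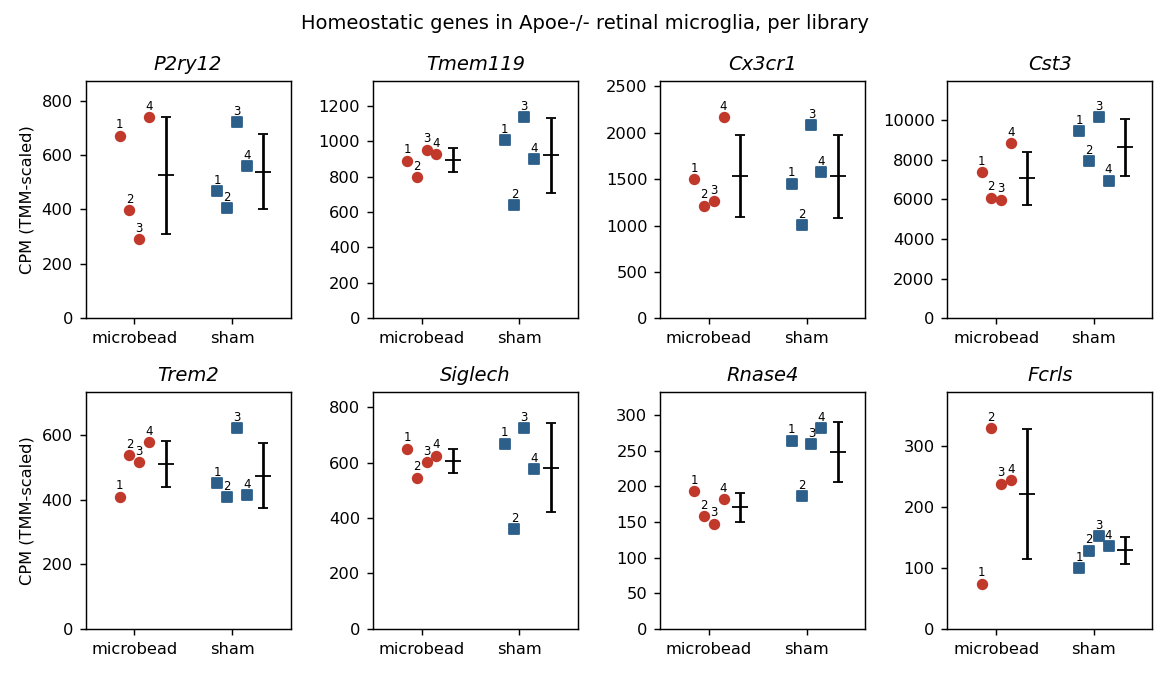
Levels of 8 homeostatic genes in Apoe-/- microglia, in CPM on linear axes, for microbead (circles, left) and sham (squares, right) libraries. Points carry the replicate number, and the bar beside them is the mean and SD of 4 libraries. The groups overlap in every panel, and Rnase4 and Fcrls are the panels with the widest gap between the means relative to their level.

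Among the most abundant homeostatic transcripts, Cst3, the cysteine protease inhibitor cystatin C, averaged 7077 ± 1337 CPM with microbeads and 8624 ± 1454 CPM with sham (SD, n = 4 each), a log2 fold change of -0.29 (SE 0.24). Csf1r, the receptor that microglia need for survival, averaged 2565 ± 539 and 2165 ± 925 CPM in the microbead and sham groups (0.24, SE 0.29). Per unit of transcript length the order was the same in both groups: Cst3 had 2369 ± 1084 TPM with microbeads and 2371 ± 840.3 TPM with sham, and P2ry12 138 ± 87.8 TPM with microbeads and 116 ± 52.4 TPM with sham.

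Surface receptors, regulators and TGF-beta genes of the state gave the same picture. Trem2, the lipid-sensing receptor on which the neurodegenerative state depends, had 410.2, 538, 517 and 579 CPM with microbeads and 452, 408, 623 and 415 CPM with sham (0.10, SE 0.23). Siglech, a sialic acid-binding lectin, averaged 606 ± 44.5 CPM with microbeads and 583 ± 161 CPM with sham. The phagocytic receptor Mertk averaged 221 ± 22.3 CPM with microbeads and 213 ± 76.5 CPM with sham. Sall1, a transcription factor that maintains microglial identity, averaged 162 ± 27.9 CPM with microbeads and 190.1 ± 39.5 CPM with sham (-0.24, SE 0.28). Irf8, a myeloid transcription factor, averaged 212 ± 76.1 and 208 ± 58.8 CPM in the same order, and the TGF-beta receptor gene Tgfbr1 225 ± 42.9 and 225 ± 45.1 CPM.

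The genes of the list with the smallest p-values pointed in both directions. Rnase4, a secreted ribonuclease, had 193, 158, 148 and 182 CPM with microbeads and 264, 186, 259 and 282 CPM with sham (-0.55, SE 0.23, unadjusted p = 0.0268). Only sham library 2 fell within the range of the microbead libraries. Slc2a5, a fructose transporter, averaged 89.5 ± 27.6 CPM with microbeads and 139 ± 45.3 CPM with sham (-0.65, SE 0.31, unadjusted p = 0.0475). Fcrls, an Fc receptor-like scavenger receptor and the target of the sorting antibody, had 74.6, 331, 239 and 244 CPM with microbeads and 99.9, 129, 153 and 136 CPM with sham (0.77, SE 0.34, unadjusted p = 0.0361). Microbead library 1 had the lowest Fcrls level of the 8 and the other 3 microbead libraries the highest. The adjusted p was 0.700 for Rnase4 and for Fcrls.

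Genes of the neurodegenerative state were mostly higher with microbeads, by amounts that ranged from none to several-fold. Of 38 listed genes 35 passed the filter, and 29 had a fold change above 0 and 6 below, with a median of 0.58. Fabp5 and Spp1 had no reads in sham libraries, and the median was the same with both set at their lower bounds. Both passed the filter only through the wild-type libraries. Of the 35, 8 were higher and 0 lower at nominal p, against 3.31% and 3.63% of all genes tested. In 5 the groups did not overlap, all higher with microbeads (1.55% of all genes tested). With edgeR 0 of the 35 were called. The level of the list, the mean of log2 CPM over the 35 genes, was 6.08, 6.91, 6.03 and 6.20 with microbeads and 5.74, 5.76, 5.86 and 5.88 with sham. Microbead library 2 was the highest, and without it the median fold change was 0.31.

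**Figure D2:**
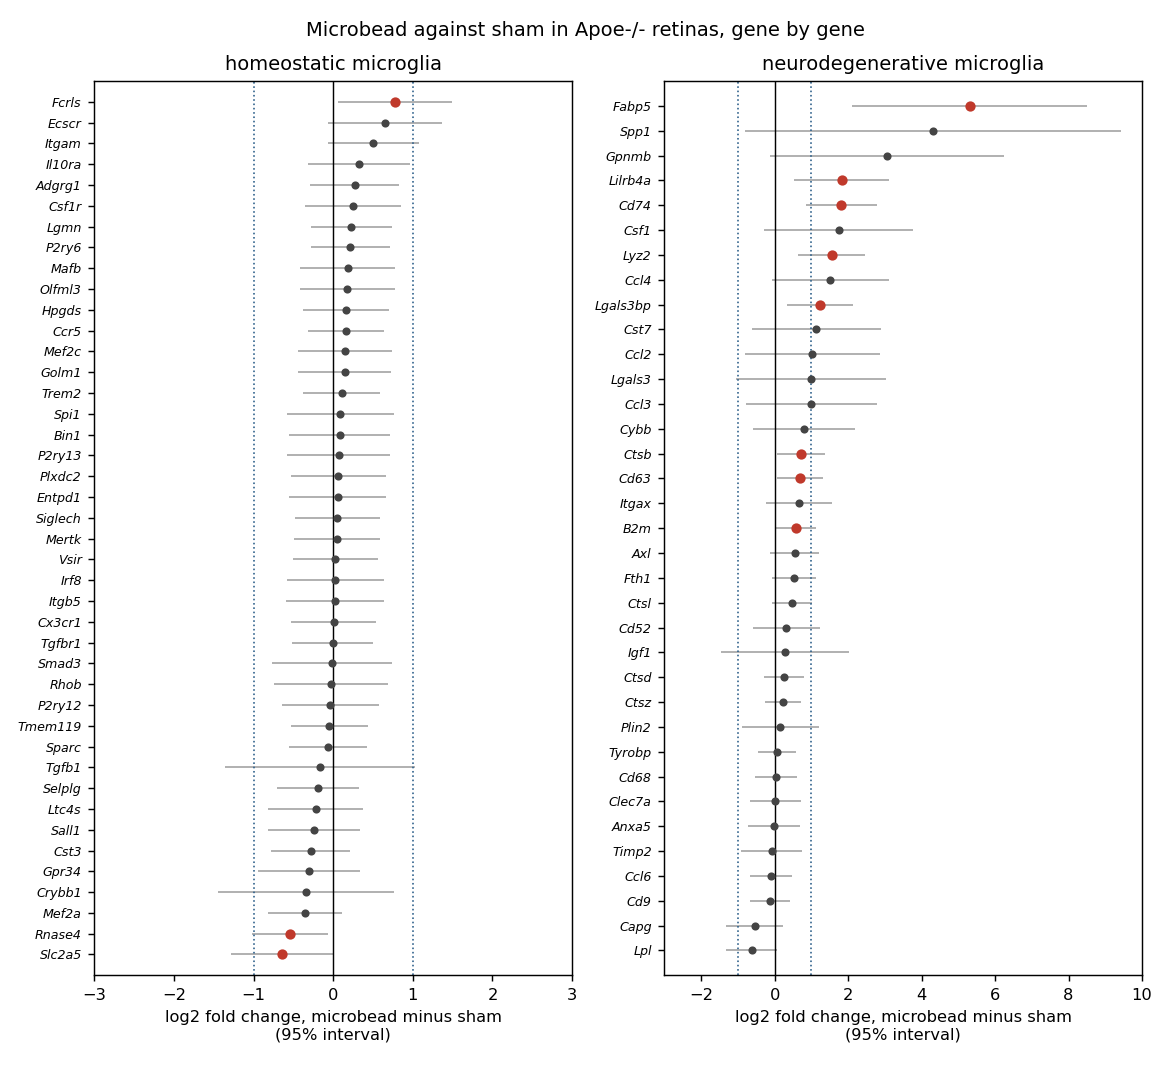
Log2 fold change of the homeostatic (left) and neurodegenerative (right) genes reported in Apoe-/- retinas, microbead minus sham, with its 95% interval from edgeR; the horizontal scales differ. Dotted lines mark a 2-fold difference and larger red points an unadjusted p under 0.05. Homeostatic genes lie around the list's median of 0.05 with short intervals, and neurodegenerative genes around 0.58, with wide intervals in the rarely detected genes at the top.

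The 5 genes without overlap between groups were a myeloid enzyme, an antigen-presentation chaperone, an inhibitory receptor, a lipid carrier and ferritin. Lyz2, lysozyme, had 232, 937, 393 and 222 CPM with microbeads and 124, 115, 188 and 175 CPM with sham, a log2 fold change of 1.55 (SE 0.43) and an adjusted p of 0.700 by edgeR. Microbead library 2 carried the largest value, and without it the fold change was 0.89. Reads shared with its neighbour Lyz1, a near-identical copy, could not be told apart with certainty. Per transcript length Lyz2 averaged 75.2 ± 36.6 TPM with microbeads and 24.9 ± 9.73 TPM with sham, again without overlap.

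Lilrb4a, an inhibitory receptor of myeloid cells that overlaps another gene model and is therefore uncertain, had 26.9, 57.4, 17.5 and 14.0 CPM with microbeads and 11.9, 8.88, 3.48 and 7.83 CPM with sham (1.82, SE 0.62). Per kilobase the reads of Lilrb4a were under 3 times the sensory receptor background. Fabp5, a fatty acid-binding protein, had 2, 8, 4 and 2 reads with microbeads and 0 reads in every sham library, at least 4.26-fold higher against a floor of 3 reads over the sham group. Its reads per kilobase stayed under the sensory receptor background, and it passed the filter only through the wild-type libraries. Fth1, the ferritin heavy chain that stores iron, had 597, 1221, 663 and 849 CPM with microbeads and 595, 533, 586 and 589.6 CPM with sham. The sham values lay within a narrow band and microbead library 1 stood just above it. The fold change of Fth1 was 0.53 (SE 0.28), and 0.28 without microbead library 2.

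Clec7a, Cd9, Cd68, Tyrobp and Lpl, also of the list, had fold changes near 0 or below it. Clec7a, the beta-glucan receptor dectin-1, had 49.7, 95.6, 27.2 and 57.6 CPM with microbeads and 38.1, 53.3, 67.8 and 62.6 CPM with sham (0.02, SE 0.33). Lpl, lipoprotein lipase, averaged 62.0 ± 19.5 CPM with microbeads and 98.0 ± 38.6 CPM with sham (-0.62, SE 0.33), a value below 0 that was -0.37 without sham library 2 and -0.19 without sham libraries 2 and 4. Cd9 averaged 405 ± 136 and 439 ± 65.1 CPM, Cd68 216 ± 69.3 and 208 ± 46.1 CPM and the signalling adaptor Tyrobp 476 ± 151 and 455 ± 85.6 CPM, microbead before sham in each case. Axl, a receptor for dying cells, averaged 85.4 ± 22.7 CPM with microbeads and 57.3 ± 25.8 CPM with sham (0.54, SE 0.32), and its fold change was 0.90 without sham library 1 and 0.21 without sham libraries 2 and 4. Lgals3bp, which encodes a galectin-3-binding protein, had 89.1, 467, 218 and 180.5 CPM with microbeads and 119, 53.3, 137 and 86.1 CPM with sham (1.23, SE 0.43), with microbead library 1 inside the sham range and a fold change of 0.68 without microbead library 2.

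Genes of MHC class II, which present peptides to CD4 T cells, were higher in the microbead libraries for the classical chains and the invariant chain. Of 11 listed genes 9 passed the filter, 8 above 0 and 1 below, with a median of 1.04. At nominal p 4 were higher (Cd74, H2-Ab1, H2-Eb1 and H2-Aa) and 0 lower, against 3.31% and 3.63% of all genes tested. In Cd74 alone of the 9 the groups did not overlap (higher without overlap in 1.55% of all genes tested). The median lay between 0.84 and 1.58 in 23 alternative analyses. Over the 6521 genes edgeR called 0 of them.

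Cd74, the invariant chain that escorts class II molecules, had 104, 81.9, 75.8 and 93.3 CPM with microbeads and 38.1, 13.3, 6.96 and 41.7 CPM with sham. The lowest microbead library stood well above the highest sham library. Its log2 fold change was 1.82 (SE 0.47), with a 95% interval of 0.84 to 2.79 and an edgeR adjusted p of 0.700. In the deposited TPM it averaged 17.7 ± 7.26 with microbeads and 4.10 ± 3.21 with sham (SD, n = 4 each), also without overlap.

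H2-Ab1, the class II beta chain (chromosome 17 from 34257689 to 34269419 on the plus strand, mm10), had 159.5, 81.9, 70.0 and 142 CPM with microbeads and 52.3, 4.44, 26.1 and 88.7 CPM with sham (1.36, SE 0.49). H2-Aa, the alpha chain, had 66.3, 51.9, 21.4 and 60.7 CPM with microbeads and 16.7, 4.44, 1.74 and 47.0 CPM with sham (1.51, SE 0.61). H2-Eb1 had 58.0, 65.6, 27.2 and 23.3 CPM with microbeads and 26.2, 4.44, 0 and 23.5 CPM with sham (1.64, SE 0.65). In these 3 genes sham library 4 overlapped the lower microbead libraries, sham library 1 did so in H2-Eb1 alone, and sham libraries 2 and 3 lay below all microbead libraries.

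The peptide-exchange factor of the class II pathway was not higher with microbeads. H2-DMa, a subunit of the exchange factor, averaged 62.9 ± 7.68 CPM with microbeads and 81.0 ± 39.1 CPM with sham (-0.40, SE 0.30), and its partner H2-DMb1 averaged 49.5 ± 13.1 and 47.0 ± 19.7 CPM (0.02, SE 0.32). Ctss, the protease that trims the invariant chain, averaged 2925 ± 684 CPM with microbeads and 2107 ± 524 CPM with sham (0.47, SE 0.26). Ciita, the activator of class II transcription, did not pass the filter, with 7 reads over the microbead and 4 over the sham libraries.

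MHC class I genes, which present peptides to CD8 T cells, showed smaller differences. All 20 listed genes passed the filter, 18 above 0 and 2 below, with a median of 0.23. At nominal p 3 were higher (H2-K1, H2-D1 and B2m) and 0 lower, against 3.31% and 3.63% of all genes tested. In CPM 0 had groups without overlap (2.5% of all genes tested). H2-K1, a classical heavy chain, had 321, 541, 432 and 496 CPM with microbeads and 243, 142, 329 and 193 CPM with sham. Microbead library 1 lay just under sham library 3, the only overlap between the groups. The fold change of H2-K1 was 0.97 (SE 0.29), with an unadjusted p of 0.00361, and it was 0.64 without sham libraries 2 and 4. In the deposited TPM H2-K1 averaged 98.4 ± 34.9 with microbeads and 40.7 ± 21.2 with sham, without overlap.

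H2-D1, the other classical heavy chain tested, had 459.9, 1164, 793 and 544 CPM with microbeads and 469, 253, 511 and 339 CPM with sham (0.90, SE 0.32). B2m, the light chain shared by class I molecules, had 632, 1437, 993 and 846 CPM with microbeads and 747, 555, 758 and 543 CPM with sham (0.58, SE 0.26). Both had their highest value in microbead library 2 and overlapped in microbead library 1, and without library 2 their fold changes were 0.60 and 0.33. The peptide transporter genes Tap1 and Tap2 had fold changes of 0.24 (SE 0.43) and 0.21 (SE 0.40), and the immunoproteasome genes Psmb8 and Psmb9 of -0.21 (SE 0.30) and 0.18 (SE 0.37). Class I heavy chains are near-identical copies, and their estimated counts are uncertain for that reason.

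Interferon-response genes were mostly higher with microbeads. Of 30 listed genes 23 passed the filter, 21 above 0 and 2 below, with a median of 0.60. At nominal p 4 were higher and 1 lower, against 3.31% and 3.63% of all genes tested. The groups did not overlap in 4 genes. Ifi207, Ifitm3 and Mx1 were higher (1.55% of all genes tested) and Ddx58 was lower (0.951%). The list level was 4.52 to 5.55 log2 CPM in the microbead libraries and 3.84 to 4.44 in the sham libraries. Microbead library 2 was again the highest, and without it the median was 0.36. Again 0 members were called by edgeR, and 9 of the 23 exceeded 3 times the sensory receptor background (36.8% of all genes tested).

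Irf1, an interferon-induced transcription factor outside the list, had 39.4, 60.1, 23.3 and 74.7 CPM with microbeads and 11.9, 13.3, 24.4 and 20.9 CPM with sham (1.43, SE 0.45, unadjusted p = 0.00482). Microbead library 3 just below sham library 3 was its only overlap. Ifitm3, a membrane protein that blocks viral entry, had 22.8, 51.9, 25.3 and 21.8 CPM with microbeads and 9.52, 13.3, 20.9 and 13.04 CPM with sham (1.00, SE 0.43), and without microbead library 2 the fold change was 0.65.

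Ifi207, a member of a family of near-identical DNA sensors, had 16.6, 35.5, 21.4 and 10.9 CPM with microbeads and 2.38, 8.88, 6.96 and 2.61 CPM with sham (1.98, SE 0.59), but per kilobase its reads lay under the sensory receptor background. Mx1, an antiviral GTPase, had 22.8, 24.6, 23.3 and 31.1 CPM with microbeads and 21.4, 0, 6.96 and 13.04 CPM with sham (1.19, SE 0.55), with overlap in TPM. Ddx58, which encodes the RNA sensor RIG-I, had 39.4, 41.0, 29.2 and 37.3 CPM with microbeads and 61.9, 44.4, 47.0 and 75.7 CPM with sham (-0.65, SE 0.26), a difference in the other direction, with overlap in TPM. The classical interferon-stimulated genes Ifit1 and Isg15 did not pass the filter, with 10 and 14 reads over the microbead libraries and 3 and 7 reads over the sham libraries. Irf7 averaged 19.9 ± 21.3 CPM with microbeads and 17.3 ± 11.3 CPM with sham (-0.04, SE 0.66).

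Promoter windows of 4 interferon-related genes are shown, since genes of this kind share a binding motif for interferon-activated factors. The windows run from 250 bases before to 50 bases after the start of the gene, 5′ to 3′ on the gene's strand, from RefSeq on GRCm38.p6. Capitals mark matches to the letters of the interferon-stimulated response element (ISRE-like: GAAA, any 2 bases, GAAA) and of the gamma-activated site (GAS-like: TTC, any 3 bases, GAA), searched on both strands. In Ifitm3 the GAS-like match overlaps the second ISRE-like match by 3 bases.
Ifitm3, chr7:141010695-141010994, minus strand: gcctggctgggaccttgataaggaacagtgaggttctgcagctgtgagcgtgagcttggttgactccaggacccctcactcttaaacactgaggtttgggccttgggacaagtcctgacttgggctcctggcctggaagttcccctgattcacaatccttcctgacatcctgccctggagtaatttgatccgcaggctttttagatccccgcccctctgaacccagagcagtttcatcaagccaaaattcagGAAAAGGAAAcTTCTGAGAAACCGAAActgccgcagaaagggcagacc
B2m, chr2:122147437-122147736, plus strand: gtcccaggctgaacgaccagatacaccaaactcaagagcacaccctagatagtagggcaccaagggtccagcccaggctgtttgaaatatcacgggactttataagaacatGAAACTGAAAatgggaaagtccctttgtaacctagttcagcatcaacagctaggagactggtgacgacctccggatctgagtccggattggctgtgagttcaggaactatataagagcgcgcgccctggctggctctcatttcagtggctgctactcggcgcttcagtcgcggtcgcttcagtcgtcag
Ifi207, chr1:173741760-173742059, minus strand: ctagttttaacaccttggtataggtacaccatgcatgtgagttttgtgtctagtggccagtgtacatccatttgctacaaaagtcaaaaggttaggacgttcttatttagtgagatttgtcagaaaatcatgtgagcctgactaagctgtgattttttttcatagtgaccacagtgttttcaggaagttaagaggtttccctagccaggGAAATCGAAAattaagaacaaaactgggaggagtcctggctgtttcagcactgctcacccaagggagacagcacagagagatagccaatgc
Irf1, chr11:53769764-53770063, plus strand: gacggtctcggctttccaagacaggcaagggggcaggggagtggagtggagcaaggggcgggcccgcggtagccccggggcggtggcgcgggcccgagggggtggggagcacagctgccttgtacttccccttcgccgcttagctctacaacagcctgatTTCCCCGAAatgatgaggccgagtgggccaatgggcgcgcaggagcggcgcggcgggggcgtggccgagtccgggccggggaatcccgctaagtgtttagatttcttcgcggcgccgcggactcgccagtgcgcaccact

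The ISRE-like letters stood at base 112 of the B2m window, at base 210 of the Ifi207 window and at bases 253 and 270 of the Ifitm3 window, counted from 1 at the 5′ end. The GAS-like letters began at base 161 of the Irf1 window. Of the tested interferon genes 16 had a window, and 9 of them (56.2%) held an ISRE-like match in at least 1 window. Among the homeostatic genes 0 of 30 did, among class I genes 4 of 17 and among all 27025 genes with a window 3.99%. A GAS-like match was found in 9.55% of all genes. Each of the 4 windows shown held a match. The windows of Ccl12, H2-K1, H2-D1, H2-Aa and Lyz2 held 0 matches of either kind, as did a second Irf1 window. That of Fcgr1 held a GAS-like match alone. These are matches of letters, and no binding was measured.

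Chemokine genes were led by Ccl12. Ccl12, a ligand of the monocyte receptor Ccr2 (chromosome 11 from 82101845 to 82103400 on the plus strand), had 64.2, 117, 159 and 188 CPM with microbeads and 16.7, 8.88, 22.6 and 49.6 CPM with sham. The lowest microbead library stood above the highest sham library. The log2 fold change was 2.39 (SE 0.60), with a 95% interval of 1.14 to 3.63, an unadjusted p of 0.000723 and an edgeR adjusted p of 0.700. Over the alternatives it lay between 2.09 and 2.92. In the deposited TPM it averaged 98.4 ± 61.1 with microbeads and 16.2 ± 12.4 with sham, also without overlap. Ccl12 belongs to a cluster of similar genes with Ccl2, and reads could be shared between them.

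Of 16 listed chemokines 8 passed the filter, 7 above 0 and 1 below, with a median of 0.76. Ccl12 alone of the 8 was higher at an unadjusted p under 0.05, against 3.31% of all genes tested. In Ccl12 alone the groups did not overlap (higher without overlap in 1.55% of all genes tested). Ccl3, which encodes MIP-1 alpha, had 143, 21.9, 7.78 and 414 CPM with microbeads and 21.4, 133, 47.0 and 109.6 CPM with sham. Ccl4, which encodes MIP-1 beta, had 45.6, 16.4, 11.7 and 236 CPM with microbeads and 11.9, 26.6, 31.3 and 41.7 CPM with sham. Both were highest in microbead library 4, and without it their fold changes were -0.37 and -0.18, while that of Ccl3 was 2.09 without sham libraries 2 and 4. The median of the list was 0.20 without that library, 0.48 without sham library 1 and 1.37 without sham libraries 2 and 4. Microbead library 4 also had the highest level of immediate early genes, described below. Whether these levels bear on the chemokines was not tested.

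Most cytokine and NF-kB genes were rare. Of 27 genes 17 passed the filter, 15 above 0 and 2 below, with a median of 0.52, and 6 of the 17 had more than 3 times the sensory receptor background. At nominal p 3 were higher and 0 lower, against 3.31% and 3.63% of all genes tested. Relb, a subunit of the noncanonical NF-kB pathway, had 16.6, 30.0, 31.1 and 17.1 CPM with microbeads and 14.3, 13.3, 8.70 and 13.04 CPM with sham (0.94, SE 0.44), without overlap in CPM but with overlap in TPM. Nfkbiz, a nuclear NF-kB regulator, had 39.4, 32.8, 21.4 and 104 CPM with microbeads and 28.5, 8.88, 3.48 and 36.5 CPM with sham (1.39, SE 0.62), and 0.67 without microbead library 4. Cd14, the co-receptor for bacterial lipopolysaccharide, averaged 152 ± 29.2 CPM with microbeads and 105 ± 16.3 CPM with sham (0.52, SE 0.25). Il1b and Il6 did not pass the filter. Without microbead library 4 the median of the list was 0.18.

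**Figure D3:**
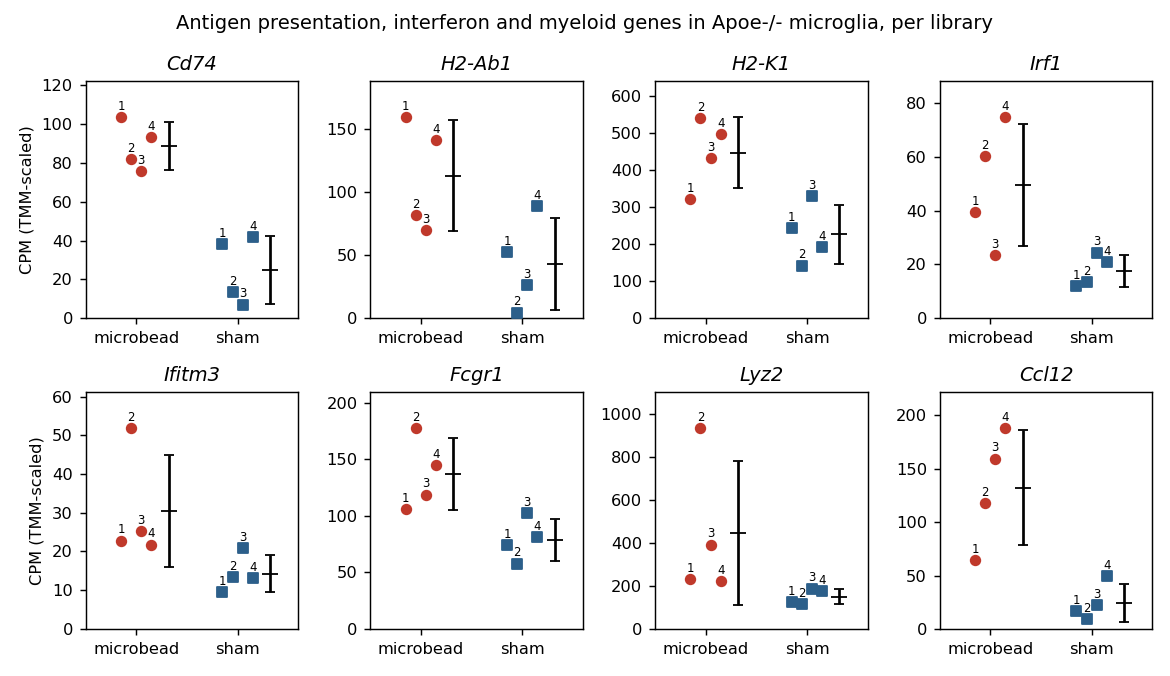
Levels of 8 genes of antigen presentation, interferon response and myeloid function in Apoe-/- microglia, in CPM on linear axes, microbead (circles, left) and sham (squares, right). Points carry the replicate number, and bars are the mean and SD of 4 libraries. All 4 microbead libraries lie above all 4 sham libraries for Cd74, Ifitm3, Fcgr1, Lyz2 and Ccl12, and the groups overlap for H2-Ab1, H2-K1 and Irf1.

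Among receptors of phagocytosis and microbial patterns, the smallest p-values were those of Fcgr1, Gas6 and Fcgr4. These 3 were higher and 0 lower at nominal p, against 3.31% and 3.63% of all genes tested. Of 34 genes 28 passed the filter, 22 above 0 and 6 below, with a median of 0.27 that was 0.11 without sham library 2. Fcgr1, the high-affinity receptor for IgG, had 106, 178, 119 and 145 CPM with microbeads and 73.7, 57.7, 103 and 80.9 CPM with sham (0.77, SE 0.25, unadjusted p = 0.00578), without overlap in CPM but with overlap in TPM. Fcgr4 averaged 39.7 ± 19.5 CPM with microbeads and 21.2 ± 12.8 CPM with sham (1.02, SE 0.46). Gas6, a bridge between dying cells and the receptors Axl and Mertk, had 47.6, 87.4, 81.6 and 115 CPM with microbeads and 38.1, 39.96, 50.4 and 62.6 CPM with sham (0.79, SE 0.28). The toll-like receptor genes Tlr2 and Tlr7 had fold changes of 0.55 (SE 0.41) and 0.55 (SE 0.29), and Tlr4 of -0.07 (SE 0.53).

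All 9 complement genes that passed the filter, of 21 listed, had a fold change above 0, with a median of 0.35. C4b alone of the 9 was higher at nominal p, against 3.31% of all genes tested. The median was 0.22 without sham library 2 and 0.17 without sham libraries 2 and 4. C1qa, which encodes a chain of the recognition protein C1q, averaged 1464 ± 255 CPM with microbeads and 1173 ± 266 CPM with sham (0.32, SE 0.23). C1qb averaged 1944 ± 385 CPM with microbeads and 1648 ± 282 CPM with sham (0.24, SE 0.23). C4b, a near-identical copy of C4a and so uncertain, had 8.29, 175, 196 and 3.11 CPM with microbeads and 9.52, 13.3, 8.70 and 20.9 CPM with sham (2.86, SE 0.94). Microbead libraries 2 and 3 held nearly all of its reads, and the other 2 microbead libraries lay below every sham library. Per kilobase the reads of C4b were under 3 times the sensory receptor background. The receptor gene C5ar1 had a fold change of 0.96 (SE 0.47), which was 1.53 without sham library 3, and C3ar1 of 0.35 (SE 0.28).

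Lysosomal genes were slightly higher with microbeads. Of 40 genes 39 passed the filter, 32 above 0 and 7 below, with a median of 0.25. In 24 the 95% interval stayed within a 2-fold difference both ways, against 27.8% of all genes tested. Of the 39 genes 33 exceeded 3 times the sensory receptor background, against 36.8% of all genes tested. Here too the interval widths are not compared at like levels. At nominal p 3 were higher (Psap, Ctsb and Cd63) and 0 lower, against 3.31% and 3.63% of all genes tested. Ctsb, the protease cathepsin B, had 994, 1929, 1252 and 1430 CPM with microbeads and 780.3, 462, 1282 and 874 CPM with sham (0.72, SE 0.31), and 0.43 without sham libraries 2 and 4. Psap, the precursor of the saposins that help degrade sphingolipids, had 621, 1161, 962 and 947 CPM with microbeads and 607, 519, 678 and 553 CPM with sham (0.64, SE 0.27). Ctsd averaged 4490 ± 1230 CPM with microbeads and 3771 ± 1101 CPM with sham (0.25, SE 0.26). The median was 0.11 without microbead library 2, 0.11 without sham library 2, 0.43 without sham library 3 and 0.06 without sham libraries 2 and 4.

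Lipid and sterol genes had fold changes on both sides of 0. Of 27 genes of lipid efflux and droplets 17 passed the filter, 11 above 0 and 6 below (median 0.27). That median was 0.11 without microbead library 2 or without sham library 1, 0.45 without sham library 3 and -0.14 among genes over 3 times background. Fabp5 alone of the 17 was higher at nominal p, against 3.31% of all genes tested. Abca1 and Abcg1, the transporters that load cholesterol onto lipoproteins such as apolipoprotein E, averaged 76.0 ± 42.3 and 41.1 ± 37.0 CPM with microbeads and 48.8 ± 13.6 and 25.1 ± 16.6 CPM with sham. Npc2, a carrier of cholesterol in the lysosome, averaged 279.6 ± 121 CPM with microbeads and 197 ± 6.38 CPM with sham (0.50, SE 0.28). Of 21 cholesterol synthesis genes 9 passed, 4 above 0 and 5 below, with a median of -0.10 that changed sign in 8 of 20 alternatives. Srebf2, the transcription factor of the pathway, had 8.29, 5.46, 9.72 and 17.1 CPM with microbeads and 40.4, 4.44, 17.4 and 39.1 CPM with sham (-1.29, SE 0.53), with overlap, and per kilobase it stood close to the background.

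Genes of TGF-beta signalling, which maintains the homeostatic state, lay on both sides of 0. Of 22 genes 15 passed the filter, 6 above 0 and 9 below, with a median of -0.01 that changed sign in 9 alternatives. Tgfbr2 averaged 199 ± 15.5 CPM with microbeads and 198 ± 33.6 CPM with sham (0.00, SE 0.24). Nrros, which anchors latent TGF-beta on microglia, averaged 88.5 ± 25.2 CPM with microbeads and 57.2 ± 31.9 CPM with sham (0.56, SE 0.34), and 0.30 without sham library 2. Ltbp1, which binds latent TGF-beta, had the lowest fold change (-0.98, SE 0.70) and overlapped between groups. Itgav, the integrin alpha V chain that helps release active TGF-beta, had 18.6, 10.9, 21.4 and 21.8 CPM with microbeads and 35.7, 35.5, 27.8 and 31.3 CPM with sham (-0.79, SE 0.31, unadjusted p = 0.0203), without overlap in CPM but with overlap in TPM.

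Of the metabolic and housekeeping lists, glycolysis had all 16 tested genes of 23 above 0, against 50.8% of all genes tested. Its median was 0.39, and 0.19 among genes over 3 times background. At nominal p 1 of the 16 was higher, against 3.31% of all genes tested. That gene, Hif1a, the oxygen-sensitive transcription factor, had 43.5, 51.9, 27.2 and 37.3 CPM with microbeads and 38.1, 22.2, 22.6 and 10.4 CPM with sham (0.74, SE 0.35), and 0.40 without sham libraries 2 and 4. Nuclear genes of oxidative phosphorylation had a median of 0.03 (28 of 49 above 0), which changed sign in 3 alternatives. At nominal p there were 0 of the 49, against 6.95% of all genes tested. Of 80 cytosolic ribosomal protein genes tested 71 were above 0, with a median of 0.44. At nominal p 8 of the 80 were higher and 0 lower, against 3.31% and 3.63% of all genes tested. The ribosomal median was 0.07 without microbead library 2. Antioxidant and iron genes had a median of 0.06 (10 of 17 above 0). Of 23 cell cycle genes 5 passed the filter, and Mki67 and Top2a did not. Of the 5 genes 1 was above 0 and 4 below, with a median of -0.38 that changed sign in 1 of 20 alternatives. At nominal p there were 0 of the 5, against 6.95% of all genes tested, and 2 exceeded 3 times background.

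Immediate early and heat shock genes, which rise when tissue is dissociated, varied more within the groups than between them. Fos had 350.1, 19.1, 5.83 and 1123 CPM with microbeads and 9.52, 226, 31.3 and 316 CPM with sham. Jun had 487, 10.9, 7.78 and 1360 CPM with microbeads and 33.3, 342, 146 and 496 CPM with sham. Microbead libraries 1 and 4 and sham libraries 2 and 4 were high, and the other 4 libraries, from both groups, low. The level of the list was 6.13, 3.92, 3.95 and 7.71 log2 CPM with microbeads and 3.77, 5.78, 4.90 and 6.02 with sham. Of 23 listed genes 20 passed the filter and 18 were above 0, with a median of 1.09, which was -0.28 without microbead library 4 and 2.34 without sham libraries 2 and 4.

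Heat shock genes followed microbead library 4 as well. Hspa1a, an inducible chaperone with a near-identical copy in Hspa1b, had 16.6, 10.9, 0 and 239.6 CPM with microbeads and 0, 13.3, 0 and 0 CPM with sham. Hspa8, the constitutive chaperone, had 443, 339, 336 and 919 CPM with microbeads and 302, 151, 346 and 417 CPM with sham (0.74, SE 0.35), and 0.28 without microbead library 4. The heat shock median of 0.41 was -0.07 without microbead library 4. The class II list had its highest level in microbead library 1, and the class I and interferon lists in microbead library 2. Of these, microbead library 1 was among the libraries high in immediate early genes and microbead library 2 among the low. The bearing of dissociation genes on these lists was not tested.

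**Figure D4:**
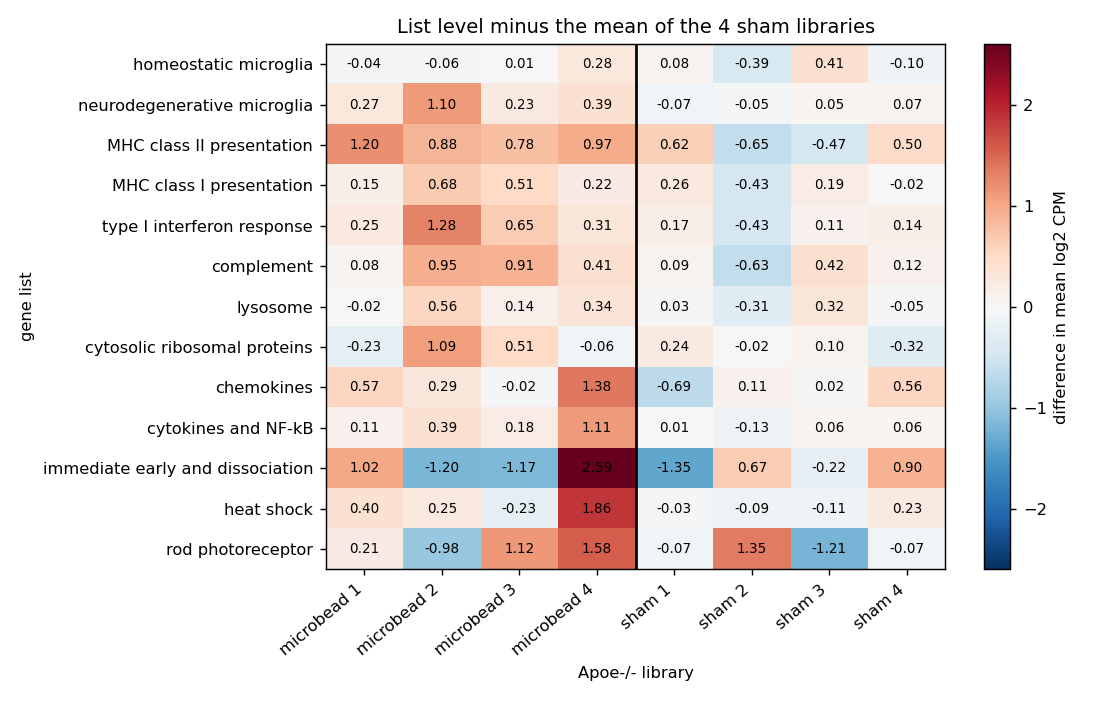
Level of 13 gene lists in each Apoe-/- library, as mean log2 CPM minus the mean of the 4 sham libraries, microbead libraries left of the line and sham libraries right. Red is higher and blue lower. The class II row is between 0.78 and 1.20 in all microbead libraries and between -0.65 and 0.62 in sham libraries, while the immediate early and rod rows vary within both groups.

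Transcripts of rods, the most numerous cells of the retina, were present in all libraries. Of 25 rod markers 24 passed the filter, and 23 had a fold change above 0 and 1 below, with a median of 0.68. Cngb1, a channel subunit, was the only 1 of the 24 higher at nominal p, against 3.31% of all genes tested. Cngb1 had 29.0, 13.7, 27.2 and 32.7 CPM with microbeads and 9.52, 26.6, 3.48 and 0 CPM with sham (1.67, SE 0.74), and 2.53 without sham library 2. The summed level of the rod markers ran from 309 to 3300 CPM with microbeads and from 289 to 2184 CPM with sham. Microbead libraries 3 and 4 and sham library 2 were high, and the median was 0.05 without microbead library 4, 0.33 without sham library 3, 1.46 without sham library 2 and 1.76 without sham libraries 2 and 4. Microbead library 2, highest for the neurodegenerative, class I and interferon lists, had the lowest rod level of the microbead group. The part of rod transcripts and of dissociation genes in the other differences was not tested.

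Markers of other blood and retinal cells were present at lower levels. Summed levels with microbeads and with sham were 39.4 to 130.2 and 38.1 to 102 CPM for 10 cone markers and 98.3 to 176 and 117 to 164 CPM for 12 markers of Muller glia. The summed level of 10 monocyte markers was 49.8 to 113.9 CPM with microbeads and 47.0 to 248.6 CPM with sham, and Ly6c2, a target of the sort, had 0 and 9 reads over the groups. Ccr2, the monocyte receptor, had 17 and 22 reads over the microbead and sham libraries. The 10 neutrophil markers summed to 292 to 382 CPM with microbeads and 159.8 to 315 CPM with sham, nearly all from Csf3r, a receptor gene that averaged 323 ± 43.1 CPM with microbeads and 244 ± 63.9 CPM with sham (0.39, SE 0.23). The granule genes S100a8 and S100a9 had 0 reads in all 8 libraries. The 14 lymphocyte markers summed to 188 to 250.7 CPM with microbeads and 201 to 302 CPM with sham, mostly from the immunoglobulin gene Ighm (-0.24, SE 0.24). Of the others Cd79b had 23 and 17 reads, Cd3e 2 and 2 and Trac 0 and 0, microbead before sham. The part of these cells in the other differences was not tested. Markers of border-associated macrophages summed to 153.0 to 343.9 CPM with microbeads and 151.0 to 279.2 CPM with sham, and Mrc1 among them had a fold change of 1.28 (SE 0.69), which was 0.84 without sham library 1, 2.45 without sham library 4 and 2.93 without sham libraries 2 and 4. Of 7 dendritic cell markers 0 passed the filter, with Flt3 at 8 and 12 reads. In bulk samples, fewer cells of a type and less RNA per cell cannot be told apart.

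**Figure D5:**
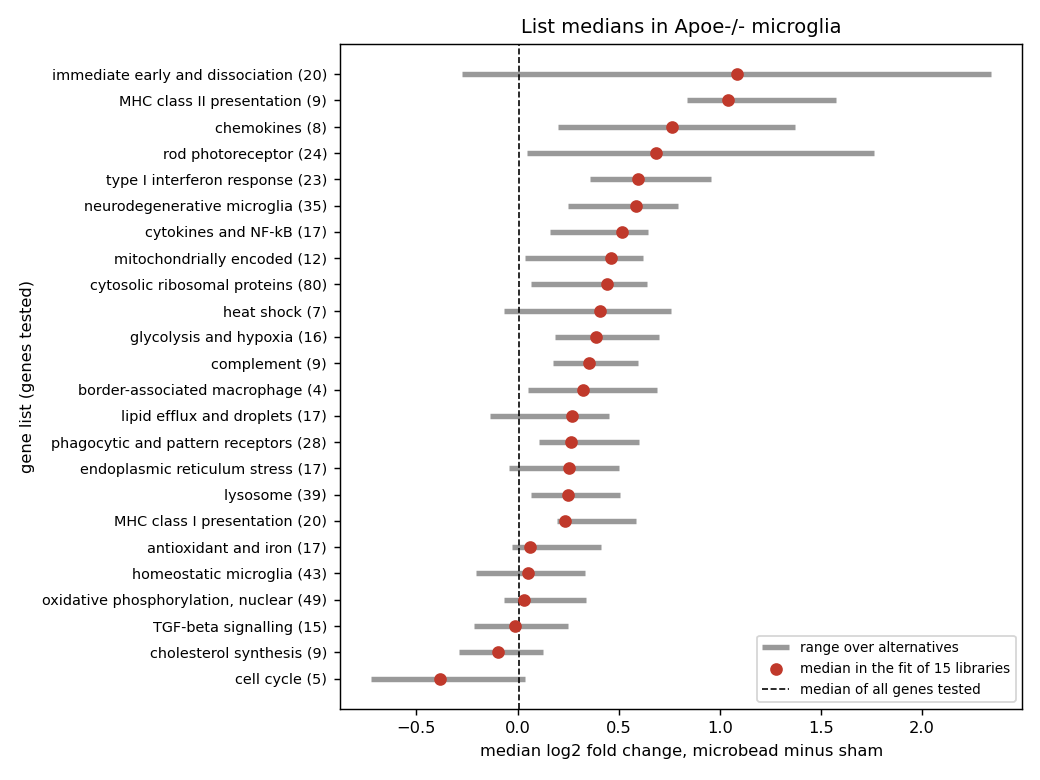
Median log2 fold change, microbead minus sham, of each gene list with at least 4 tested genes in Apoe-/- microglia. Points are medians from the fit of 15 libraries, bars the range over the alternative analyses, and the dashed line the median of all genes tested (0.008). The class II bar, 0.84 to 1.58, lies far from 0, the homeostatic bar spans 0, and the immediate early bar is the widest.

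Beyond the lists, the protein-coding genes with a mean of at least 20 CPM were ranked by p-value. Of the 10 at the top with higher levels in microbead libraries, Ccl12, Cd74, Lyz2, H2-K1, Irf1 and Hspa1a are described above. Rbpj, the transcription factor of Notch signalling, had 24.9, 62.8, 42.8 and 46.7 CPM with microbeads and 26.2, 17.8, 20.9 and 20.9 CPM with sham (1.01, SE 0.32). Ubxn6, a cofactor of the ATPase p97, had 20.7, 32.8, 36.9 and 43.6 CPM with microbeads and 19.0, 13.3, 10.4 and 10.4 CPM with sham (1.34, SE 0.42). Zfyve19 had 31.1, 35.5, 27.2 and 35.8 CPM with microbeads and 7.14, 4.44, 24.4 and 10.4 CPM with sham (1.31, SE 0.40), and Mms19 had a fold change of 0.95 (SE 0.30). In CPM the groups did not overlap for Ubxn6 and Zfyve19 and overlapped for Rbpj and Mms19, while in the deposited TPM Mms19 alone of these 4 did not overlap. Without sham library 3 the fold change of Zfyve19 was 2.03. Per kilobase the reads of Irf1, Rbpj, Ubxn6 and Mms19 were under 3 times the sensory receptor background.

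Of the 10 at the top with lower levels, Ppip5k1, a kinase of inositol pyrophosphates, had the smallest p. It had 16.6, 21.9, 21.4 and 23.3 CPM with microbeads and 40.4, 88.8, 47.0 and 49.6 CPM with sham (-1.38, SE 0.34, unadjusted p = 0.000560, adjusted p = 0.700 by edgeR). The groups did not overlap, and per kilobase its reads were under 3 times the sensory receptor background. Ndufv3, a subunit of respiratory complex I, had 14.5, 2.73, 13.6 and 14.0 CPM with microbeads and 30.9, 39.96, 26.1 and 28.7 CPM with sham (-1.37, SE 0.38), with overlap in TPM. Psmc3, a subunit of the proteasome, had 26.9, 19.1, 25.3 and 23.3 CPM with microbeads and 54.7, 22.2, 53.9 and 47.0 CPM with sham (-0.94, SE 0.31). Chordc1, a cochaperone of Hsp90, averaged 60.9 ± 11.6 CPM with microbeads and 110.3 ± 36.7 CPM with sham (-0.84, SE 0.29), and -0.47 without sham libraries 2 and 4.

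The other 6 were Ccdc138 (-1.69), Slc9b2 (-1.75), Olfr1167, Tmem200a (-2.44), Ica1l (-2.95) and the predicted gene Gm14391 (-1.49), with log2 fold changes in parentheses. Olfr1167 had 12.4, 0, 5.83 and 10.9 CPM with microbeads and 30.9, 44.4, 19.1 and 36.5 CPM with sham. It is an olfactory receptor gene, of the kind that serves as background. Of the 6, Ccdc138 alone exceeded 3 times the sensory receptor background. All of these 10 genes except Psmc3 had their highest level in sham library 2, the library with the largest receptor share. Without sham libraries 2 and 4 the fold change was -0.85 for Ccdc138 and -0.68 for Gm14391. Tmem200a had 22.8, 2.73, 5.83 and 1.56 CPM with microbeads and 14.3, 93.2, 12.2 and 73.1 CPM with sham, high in sham libraries 2 and 4. Without those 2 libraries, 96 genes were lower and 188 higher at nominal p, and 0 were called.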

How the data were processed

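Per the file headers, the authors deposited 1 Salmon transcript table per library with estimated counts, TPM and effective lengths, and a gene TPM table of the series that also names SMART-Seq2. Effective length, another quantity of the deposited tables, was used only for length offsets. Salmon 1.4.0, R 4.0.3, DESeq2 1.30.1 and mm10 are named in the submitters' processing notes. The sources used here give no annotation release, library type or read filter. GENCODE M21 gave a gene for 116023 of the 116945 transcript identifiers, and unassigned transcripts held 0.217 to 0.354% of reads. Gene counts are sums of the authors' estimated counts, rounded. Sums of transcript TPM equalled the deposited gene TPM in 99.72% of values (relative tolerance 0.001).

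Counts were tested with edgeR 4.0.16 (R 4.3.3; quasi-likelihood F-test, TMM, filterByExpr, library sizes recomputed after filtering) in 1 model of 15 libraries and 4 groups. The wild-type libraries (4 sham, 3 microbead) shared the estimate of the spread, and they also entered the filter on low counts and the scaling. With the 8 Apoe-/- libraries alone, 3814 genes passed the filter. P-values are two-sided and adjusted by Benjamini-Hochberg over 6521 genes (threshold 0.05). limma 3.58.1 and DESeq2 1.42.0 were alternatives, with other scalings, filters, covariates and left-out libraries. Procedures were tested on simulated data. Non-overlap used log2 CPM with a prior count of 2. Library measures were compared by exact permutation over 70 arrangements (smallest p 0.0286), adjusted over 6. Background is reads per kilobase of 1499 sensory receptor genes. A count of 0 allows up to 3 reads, or 4.67 to 13.3 CPM in these libraries, counting error only.

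No pair of libraries within a group agreed within sampling noise (chi-square over its degrees of freedom at least 3.34). Deviations of same-numbered libraries correlated at -0.16, 0.015, 0.029 and -0.008, so the numbers were not used as pairs. Named genes are members of the homeostatic and neurodegenerative lists in the upper part by level, without overlap or among the 5 smallest p; the 10 smallest p in each direction among protein-coding genes of at least 20 CPM; and in each other list the 2 smallest p and any without overlap. Other genes named for context were chosen after their values were seen. The members and the gene lists were chosen with earlier results of these data known. A few list members count in the totals and are not reported here by name. Promoter windows are from RefSeq. Coordinates are those of GENCODE on mm10, counted from 1.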

Additional observations from a re-analysis of the deposited data

Results flagged for a closer look

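In a group of 4 libraries, a value was singled out when its gap to the nearest other took up more of the range of the group than Dixon's 95% limit for 4 samples. Chance singles out about 1 in 20 groups, and 7 of 58 groups checked were singled out here. Microbead library 4 stood above the other microbead libraries in the level of cholesterol synthesis genes (4.43 log2 CPM, others 3.95 to 4.02) and of endoplasmic reticulum stress genes (6.69, others 5.71 to 5.75). Microbead library 2 stood above the others in lipid efflux and droplet genes (5.78, others 5.10 to 5.12) and below them in cell cycle genes (3.75, others 4.26 to 4.37). Sham library 2 had the highest satellite share of its group (74.4%, others 64.7 to 66.2%) and the lowest level of interferon genes (3.84, others 4.39 to 4.44). Sham library 4 had the lowest level of nuclear oxidative phosphorylation genes (4.58, others 4.82 to 4.86).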

How the results depend on the processing

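The count of genes called was 0 in 22 of 23 alternatives. With no filter on low counts it was 37 of 28112 genes (28 higher, 9 lower) with 1377 at an unadjusted p under 0.05. Past the threshold were then 12 named genes: Ccl12, Cd74, Lyz2, Fabp5, H2-Ab1, Hspa1a, C4b, Socs3, Atf3, Ccl4, Tmem200a and Ica1l. Hspa1a, with the smallest edgeR adjusted p (6.6e-13), had 8, 4, 0 and 154 reads with microbeads, and C4b 4, 64, 101 and 2. Such calls can thus rest on few libraries. The count at an unadjusted p under 0.05, 453 in the main analysis, was 182 of 3814 in the 8 Apoe-/- libraries alone and 167 of 2402 among genes over 3 times background, which test fewer genes. It was 284 without sham libraries 2 and 4. Both the restriction to genes over background and the removal of the 2 sham libraries were chosen after seeing the data. With a replicate block, the numbers as pairs, it was 111 of 3814, with 0 called. Leaving out 1 library gave 288 to 760 genes: 288 without sham library 2, 716 without microbead library 1 and 760 without sham library 3. For these changes the cause was not tested. The satellite difference of -3.63 percentage points kept its direction in all 9 alternatives run. Genes without overlap numbered 163, 148 in TPM (123 higher, 25 lower) and 122 under a stricter filter. In the analysis of 6521 genes 0 named genes were called, so none could lose or reverse a call, but Atf3 (2.57) and Ccl4 (1.52), both called with no filter, had fold changes of -0.21 and -0.18 without microbead library 4. Medians of lists kept within the spread between libraries in 517 of 542 comparisons. That spread is wide in lists that vary between libraries, so a median could change sign and still count as kept. The immediate early median of 1.09 did so at -0.28 without microbead library 4. On log2(TPM + 1) and log2(TPM + 0.1) the median of all genes was 0.18 and 0.26, so TPM values are relative to that. Depth limits rare genes: 2402 of 6521 (36.8%) exceeded 3 times background.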

Other observations

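In endoplasmic reticulum stress genes, 17 of 19 passed the filter, 14 above 0 and 3 below, with a median of 0.26 that was -0.04 without microbead library 4. Sel1l, part of the machinery that disposes of misfolded proteins, had 41.4, 32.8, 33.0 and 49.8 CPM with microbeads and 23.8, 8.88, 24.4 and 26.1 CPM with sham, without overlap (0.85, SE 0.34, unadjusted p = 0.0211). Pdia4, a folding enzyme of the same compartment, averaged 35.2 ± 14.5 CPM with microbeads and 60.2 ± 14.6 CPM with sham (-0.75, SE 0.38).

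Of the mitochondrially encoded genes 12 of 13 passed the filter, 11 above 0 and 0 below, with a median of 0.46. The gene that did not pass was mt-Nd6, with 35 reads over the microbead and 17 over the sham libraries. mt-Nd4l passed through the wild-type libraries, with no reads in these 8 libraries and a fold change of 0. mt-Nd5, a subunit of complex I, had 141, 557, 356 and 261 CPM with microbeads and 252, 244, 233 and 177 CPM with sham (0.53, SE 0.31), and 0.15 without microbead library 2. The median was 0.04 without microbead library 3 and 0.16 without microbead library 2, the 2 libraries with the largest share of these reads (0.293 and 0.254%).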
